A study of Mus musculus with 6 samples.

Results

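The Frizzled receptors are membrane-spanning proteins that bind Wnt ligands, and the mouse has 10 of them, *Fzd1* to *Fzd10*. They were found on the array as the non-control probes whose RefSeq name belongs to one of these symbols. All 10 genes were present, with 11 probes (2 for *Fzd5* and 1 for each of the others), among 45616 genes or transcripts and 56605 probes. Their level was compared between sorted islet cells of newborn mice that carried the mark of *Wnt4* expression (*Wnt4*hi) and cells that did not (*Wnt4*low).

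The cells came from the islets of pups at postnatal day 1 (P1) that carried both the knock-in allele *Wnt4eGFPCre* and the reporter *mTmG*, in crosses to C57BL/6J. Cre made from the *Wnt4* locus switches the reporter from membrane tdTomato to membrane GFP (mGFP), so mGFP marks cells that express *Wnt4* or did so earlier. Cells were sorted as mGFP+ (*Wnt4*hi, replicates 2, 3 and 4) or mGFP- (*Wnt4*low, replicates 1, 3 and 4), and both populations carry the same alleles, with no untreated or allele-free group. Each of the 6 single-color arrays holds the amplified RNA of a pool of 4 pups, or 3 pups for replicate 4 of each population. The sort took all islet cells of either color, not β-cells alone. The labels do not say whether pools came from separate litters or sorts, and p-values measure only the spread between these arrays.

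A Wnt that binds a Frizzled receptor together with the co-receptor LRP5 or LRP6 starts the canonical pathway, in which Dishevelled is recruited to the membrane and β-catenin reaches TCF and LEF factors in the nucleus. The same receptors also feed the planar cell polarity and calcium branches, with ROR1, ROR2 or RYK as partners. By sequence the receptors fall into the subfamilies *Fzd1*, *Fzd2* and *Fzd7*, then *Fzd4*, *Fzd9* and *Fzd10*, then *Fzd5* and *Fzd8*, and then *Fzd3* and *Fzd6*. *Fzd4* stands apart from the others in also binding Norrin, a ligand that is not a Wnt and acts on blood vessels.

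Promoter sequence was read from RefSeq (GRCm38.p6) for 6 of the 10 genes. The 250 bases before the start of *Fzd4* and *Fzd1*, the receptors with the largest differences below, and of *Fzd5*, the receptor with the closest means, are given 5′ to 3′ on the strand of the gene. Capitals mark the GC box, GGGCGG or its reverse complement CCGCCC, and adjoining boxes can overlap.
*Fzd4*, chr7:89404116-89404365, plus strand: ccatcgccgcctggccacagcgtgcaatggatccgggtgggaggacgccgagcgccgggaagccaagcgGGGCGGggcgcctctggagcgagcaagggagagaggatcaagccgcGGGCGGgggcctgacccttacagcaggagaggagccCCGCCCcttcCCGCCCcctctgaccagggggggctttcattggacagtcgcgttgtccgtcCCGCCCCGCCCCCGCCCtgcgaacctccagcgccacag
*Fzd1*, chr5:4758217-4758466, minus strand: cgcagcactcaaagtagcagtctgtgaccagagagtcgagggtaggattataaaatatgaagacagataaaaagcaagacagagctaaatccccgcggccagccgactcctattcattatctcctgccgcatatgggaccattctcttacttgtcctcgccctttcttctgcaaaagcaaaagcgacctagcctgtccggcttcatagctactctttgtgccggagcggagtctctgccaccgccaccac
*Fzd5*, chr1:64737751-64738000, minus strand: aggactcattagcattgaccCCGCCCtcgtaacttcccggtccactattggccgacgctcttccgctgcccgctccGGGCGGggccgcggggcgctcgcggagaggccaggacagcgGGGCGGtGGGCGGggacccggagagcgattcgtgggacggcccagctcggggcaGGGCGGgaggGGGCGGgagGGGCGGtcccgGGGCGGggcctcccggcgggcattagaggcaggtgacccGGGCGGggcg
*Fzd4* had 7 GC boxes in a window of 72.8% G and C with 25 CpG, and *Fzd5* had 9 in a window of 76.4% with 32 CpG. The *Fzd1* window had none, with 51.2% G and C and 12 CpG, and held the letters TATAAA once, 202 bases before the start. Of 32851 mouse promoters of this length, 32.7% held a GC box and 12.4% held TATAAA on either strand, with a median of 52.4% G and C and 6 CpG. The receptors with the largest differences thus had unlike promoter composition, and *Fzd4* was closer to *Fzd5* than to *Fzd1*. The letters CTTTGAT or CTTTGAA, which TCF and LEF factors can bind, were in none of the 6 windows and in 7.48% of all promoters.

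Intensities are given as log2 values after background correction and quantile normalization. A probe was called well above background by the scanner software on each array. Of the 10 receptors, 6 were well above background on all 6 arrays and 9 on all 3 arrays of at least 1 population. Probes differ in brightness for reasons other than transcript number, so levels of different receptors were not ranked. The arrays were alike in quality: their median signal was 10.8 to 15.6 times the median local background, 70.5% to 79.5% of probes were well above background, and all lay on 1 slide. *Wnt4* itself was 10.83 ± 0.34 in *Wnt4*hi and 9.76 ± 0.41 in *Wnt4*low arrays (SD, n = 3 each), with no overlap (limma, adjusted p = 0.212).

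**Figure D1:**
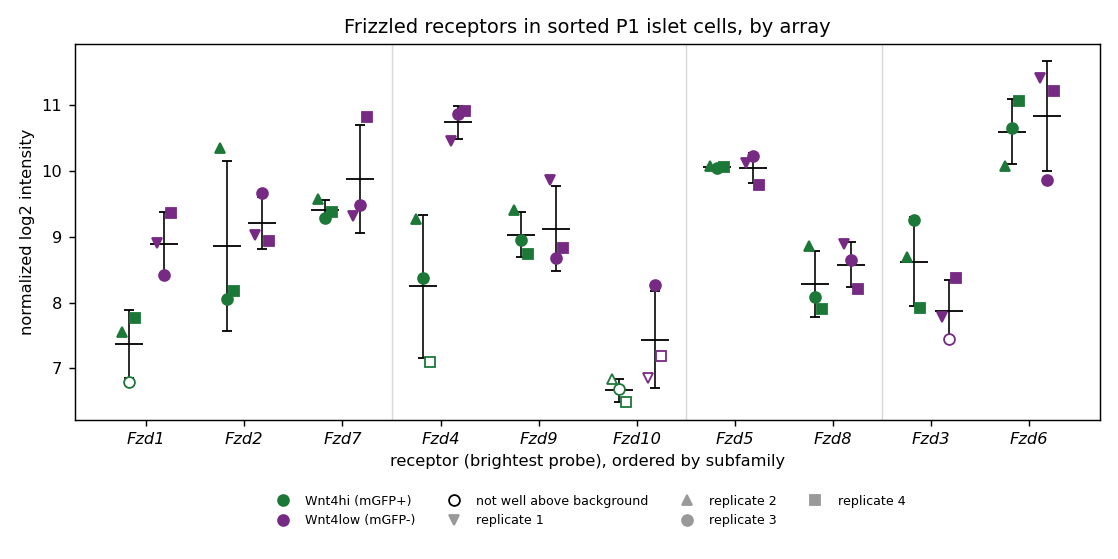
Normalized log2 intensity of each Frizzled receptor on each of the 6 arrays, in the order of the subfamilies, with the mean (bar) and SD (whisker) of the 3 arrays of a population. Open symbols were not well above background. *Fzd4* and *Fzd1* separate the populations, *Fzd5* lies at about 10 on every array, and the height of different receptors is not comparable.

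*Fzd4* was the receptor that differed most. It read 9.27, 8.37 and 7.10 in *Wnt4*hi replicates 2, 3 and 4 and 10.45, 10.86 and 10.91 in *Wnt4*low replicates 1, 3 and 4. The 3 *Wnt4*low arrays were close together, the 3 *Wnt4*hi arrays were spread, and no *Wnt4*hi array reached the lowest *Wnt4*low array. On the unnormalized scale the median spot signal was 590, 397 and 91 against 1609.5, 1814 and 1659, and replicate 4 of *Wnt4*hi was the only array on which the probe was not well above background. The difference was -2.50 on the log2 scale (SE 0.53, 95% interval -3.79 to -1.20), a level 5.64-fold higher in *Wnt4*low cells. It passed the unadjusted threshold that the study's methods use and not the adjusted one (limma, adjusted p = 0.149). Replicate 3 of the populations, numbered alike, differed by -2.50. Leaving out both arrays numbered 4, which include the dim one, gave -1.84 (limma, adjusted p = 0.402).

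*Fzd1*, of the subfamily usually tied to canonical signaling, was the other receptor past the unadjusted threshold. It read 7.56, 6.79 and 7.77 in *Wnt4*hi and 8.91, 8.41 and 9.36 in *Wnt4*low replicates in the same order. The ranges did not overlap, and the *Wnt4*hi array with the lowest value, replicate 3, was not well above background. The difference was -1.52 (SE 0.35, 95% interval -2.36 to -0.68), which is 2.87-fold higher in *Wnt4*low cells (limma, adjusted p = 0.172). Replicate 4 of the populations, well above background in both, differed by -1.59. With 1 array left out at a time the difference was -1.76 to -1.23.

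The other members of the *Fzd1* subfamily did not separate the populations. *Fzd2* read 10.35, 8.06 and 8.17 in *Wnt4*hi against 9.03, 9.67 and 8.94 in *Wnt4*low arrays. The high value of *Wnt4*hi replicate 2 lies above all 3 *Wnt4*low arrays while the other two lie below them, so the mean difference of -0.35 has a wide interval, -1.91 to 1.20. Without that array the difference was -1.10 (limma, adjusted p = 0.212), past the unadjusted threshold, and without *Wnt4*hi replicate 3 it was 0.046. *Fzd7* read 9.57, 9.28 and 9.37 against 9.32, 9.49 and 10.82, a difference of -0.47 (SE 0.40, 95% interval -1.45 to 0.52) that rests on *Wnt4*low replicate 4, without which it was 0.0047.

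In the *Fzd4* subfamily, *Fzd9* and *Fzd10* passed neither threshold. *Fzd9* read 9.41, 8.95 and 8.74 in *Wnt4*hi and 9.86, 8.68 and 8.83 in *Wnt4*low arrays, with overlapping ranges and a difference of -0.09 (95% interval -0.97 to 0.78) that turned to 0.28 without *Wnt4*low replicate 1 and 0.056 without *Wnt4*hi replicate 4. *Fzd10* was not well above background on any *Wnt4*hi array and on 1 of 3 *Wnt4*low arrays, replicate 3. It read 6.84, 6.68 and 6.48 against 6.86, 8.26 and 7.19, so that its ranges were separated by only the gap from 6.84 to 6.86. The means were 6.67 ± 0.18 and 7.43 ± 0.73 (SD, n = 3 each; limma, adjusted p = 0.560), and no fold is given because 5 of the 6 values were not well above background.

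*Fzd5* was the steadiest receptor. It read 10.08, 10.05 and 10.06 in *Wnt4*hi and 10.12, 10.24 and 9.79 in *Wnt4*low arrays, a difference of 0.01 (SE 0.16, 95% interval -0.37 to 0.39). Its interval lay within 1 on the log2 scale to either side, as did that of *Fzd9* and of no other receptor. The second, dimmer *Fzd5* probe varied more, with 8.69, 8.89 and 9.68 against 10.05, 8.66 and 9.40 and a difference of -0.28 (SE 0.42, 95% interval -1.31 to 0.75). Both probes gave overlapping populations. *Fzd8*, its closest relative, read 8.86, 8.08 and 7.91 against 8.89, 8.64 and 8.21, a difference of -0.30 (95% interval -1.04 to 0.45) that was -0.58 without *Wnt4*hi replicate 2 and -0.11 without *Wnt4*hi replicate 4.

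*Fzd3* and *Fzd6* take part in planar cell polarity, and neither passed a threshold. *Fzd3* had the largest positive difference, 0.75 (SE 0.40, 95% interval -0.22 to 1.72; limma, adjusted p = 0.610). It read 8.70, 9.25 and 7.92 in *Wnt4*hi and 7.79, 7.44 and 8.38 in *Wnt4*low arrays, where replicate 3 was not well above background. The populations overlap because of the arrays numbered 4, whose difference was -0.46, and without both the difference was 1.36 (limma, adjusted p = 0.395), past the unadjusted threshold. With 1 array left out at a time it was 0.44 (without *Wnt4*hi replicate 3) to 1.11 (without *Wnt4*hi replicate 4). *Fzd6* read 10.08, 10.66 and 11.06 against 11.41, 9.87 and 11.22, a difference of -0.23 (SE 0.47, 95% interval -1.37 to 0.90) that turned to 0.026 without *Wnt4*hi replicate 2 and 0.057 without *Wnt4*low replicate 1.

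Counted together, 8 receptors had a lower mean in *Wnt4*hi and 2 a higher mean, of which *Fzd5*, at 0.01, turned to -0.063 with cyclic loess and -0.077 with the processed signal. The median log2 difference was -0.33. It was -0.57 without *Wnt4*hi replicate 2 and -0.23 without *Wnt4*hi replicate 3. With both arrays numbered 4 left out it was -0.21, and with the authors' deposited values -0.59. When blocked by replicate number it was -0.63, a value that rests only on the arrays numbered 3 and 4. Over all 45616 genes the median was 0.07 and 36.5% were below 0. Without *Fzd10* the median of the receptors was -0.30. None of the 10 passed the adjusted threshold, against 0.403% of all genes that passed it as lower in *Wnt4*hi and 0.0351% as higher. Over all genes 200 passed with all 6 arrays and 0 to 2 with any 1 array left out. The 2 receptors past the unadjusted threshold were both lower, where 5.53% of all genes passed as lower and 5.02% as higher. The populations did not overlap for 3 receptors, all lower and *Fzd10* by values mostly not well above background, with 6.44% of all genes not overlapping as lower and 9.56% as higher. The interval of the difference included 0 for 8 receptors. The median SD within a population was 0.56 for the receptors against 0.28 for all genes, and the 95% interval reached a median of 0.93 to either side, so that precision with 3 arrays a side was low for many receptors. For a single receptor, an exact two-sided permutation of 3 arrays against 3 cannot give a p below 0.1.

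**Figure D2:**
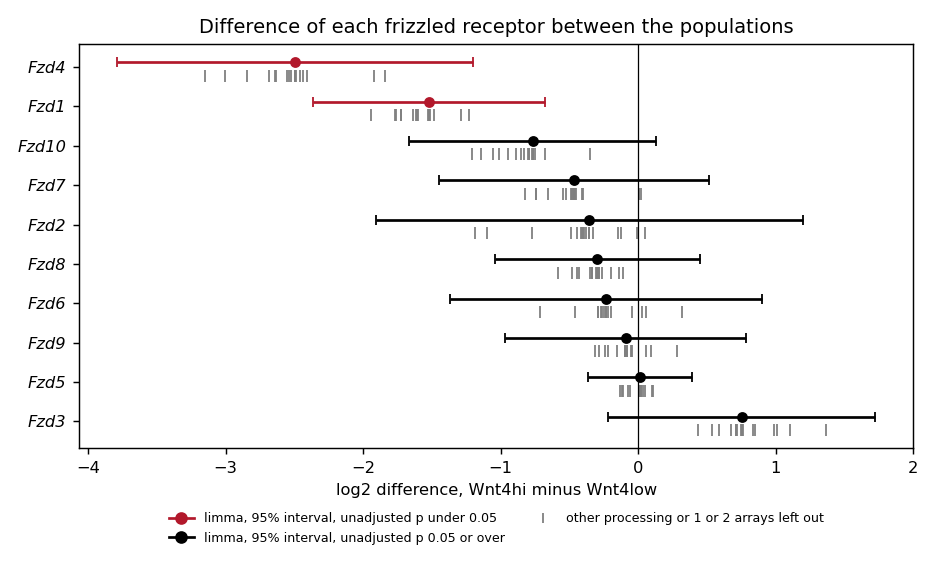
Log2 difference of each Frizzled receptor, *Wnt4*hi minus *Wnt4*low, with its 95% interval (dots and lines) and the values under the other ways of processing and with 1 or 2 arrays left out (ticks). The ticks of *Fzd4* and *Fzd1* all lie below -1, those of *Fzd3* all lie above 0, and those of *Fzd5*, *Fzd6*, *Fzd7*, *Fzd2* and *Fzd9* fall on both sides of 0.

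The sorted populations also differed in the level of marker genes of other cell types. The counts of these lists stand beside 5.53% of all genes past the unadjusted threshold as lower and 5.02% as higher, with 36.5% of all genes below 0. All 20 endothelial markers had a lower mean in *Wnt4*hi, with a median difference of -3.19. Of these, 18 passed the unadjusted threshold and 10 the adjusted one, which 0.403% of all genes passed as lower. Their summed level was 13.13 to 13.68 on the *Wnt4*hi arrays and 15.84 to 16.89 on the *Wnt4*low arrays. Among the brightest, *Cd34* differed by -2.82, *Egfl7* by -2.15 and *Plvap*, a component of vessel fenestrae, by -4.10. *Tek* and *Tie1*, receptors that define endothelium, were not well above background on any *Wnt4*hi array and were at least 7.59-fold and 12.2-fold higher in *Wnt4*low.

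Of 14 mesenchyme and pericyte markers 13 had a lower mean in *Wnt4*hi, 9 past the unadjusted and 0 past the adjusted threshold, with a summed level of 15.47 to 16.33 against 16.61 to 16.98. *Col3a1*, a fibrillar collagen, differed by -1.18 and *Acta2*, smooth muscle actin, by -0.21. All 10 proliferation markers had a lower mean in *Wnt4*hi, 5 past the unadjusted and 0 past the adjusted threshold, with a summed level of 12.92 to 13.46 against 13.53 to 14.57. Of 12 β-cell markers 11 had a higher mean in *Wnt4*hi, 8 past the unadjusted and 0 past the adjusted threshold. Their summed level was 18.37 to 18.42 against 17.57 to 18.21, and all 12 were well above background on all 6 arrays. *Ins1* and *Ins2*, the insulin genes, differed by 0.43 and 0.56 and *Mafa* by -0.05. All 6 α-cell markers had a higher mean in *Wnt4*hi, 3 past the unadjusted and 0 past the adjusted threshold. Of 10 leukocyte markers 9 had a lower mean in *Wnt4*hi (4 past the unadjusted threshold) and of 9 Schwann cell markers 8 (2 past it). Of 9 acinar markers 7 had a lower mean (1 past it), and 1, *Bhlha15*, passed it as higher (1.26). In each of these lists 0 passed the adjusted threshold. Of 9 duct markers 6 had a higher mean in *Wnt4*hi. The unadjusted threshold was passed by 2 as higher (*Krt18*, 1.09, and *Epcam*, 1.19) and by 1 as lower (*Spp1*, -2.16), and the adjusted one by 0. All 4 markers of δ-, PP- and ε-cells passed the unadjusted threshold, 2 higher and 2 lower, and *Ghrl*, the ghrelin gene of ε-cells, passed the adjusted one (2.10; limma, adjusted p = 0.0498).

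*Fzd4* and *Fzd1* lie on the same side as the endothelial and proliferation markers and most mesenchyme, Schwann cell, leukocyte and acinar markers. The summed levels of the endothelial, mesenchyme, proliferation and Schwann cell lists separate the arrays in the same way. Single markers need not, such as *Sox10* (0.05) and *Mbp* (-0.03) with overlapping ranges. The leukocyte sums overlap, at 16.02 to 16.21 in *Wnt4*hi and 16.11 to 16.51 in *Wnt4*low. The acinar sums also overlap, at 12.70 to 12.90 and 12.70 to 14.40. The summed level of the Schwann cell markers was 12.83 to 12.97 in *Wnt4*hi and 13.14 to 13.42 in *Wnt4*low. The part of these cells in the difference of either receptor was not tested. With bulk RNA of a sorted pool, fewer cells of a type and less RNA per cell cannot be told apart.

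**Figure D3:**
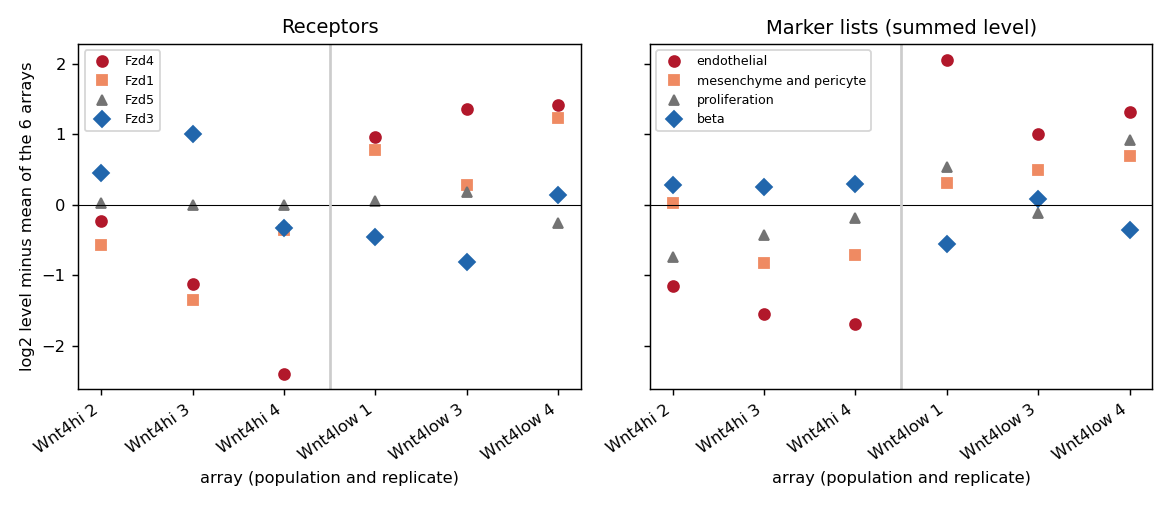
Log2 level on each array minus the mean of the 6 arrays, for 4 receptors (left) and for the summed level of 4 marker lists (right). *Fzd4* and *Fzd1* are lower on all 3 *Wnt4*hi arrays than on any *Wnt4*low array. So are the summed levels of the endothelial, mesenchyme and proliferation markers, while that of the β-cell markers is higher on all 3.

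By array values, the genes nearest to *Fzd4* were sought among 17657 symbols well above background on all 3 arrays of a population. Distance was the root mean square difference of the centred log2 values over the 6 arrays. The nearest were *Chsy1* (0.31), a chondroitin synthase, *Stfa2l1* (0.32), *Stc1* (0.35), *Abcc9* (0.36), a potassium channel subunit of pericytes and smooth muscle, and *Tcim* (0.37), with differences from -2.78 to -2.11. *Abcc9* is also a member of the mesenchyme and pericyte list. For *Fzd3* the nearest was *Ap4e1* (0.074), an adaptor complex subunit, followed by *Zfp712* (0.16), *Gtf2h1* (0.18), *Ppif* (0.23) and *Smim19* (0.23).

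Next come the genes that work with the receptors at the membrane. Of 9 co-receptors none passed the adjusted threshold, and 2, *Tspan12* and *Ror1*, passed the unadjusted one, both lower, where 5.53% of all genes passed it as lower. *Tspan12*, the tetraspanin that enhances Norrin signaling through FZD4, read 8.82 ± 0.57 in *Wnt4*hi and 10.21 ± 0.27 in *Wnt4*low arrays (SD, n = 3 each), a difference of -1.39 (SE 0.32; limma, adjusted p = 0.172) with no overlap. *Ror1* differed by -0.46 and was well above background on 1 *Wnt4*hi array. *Reck*, a co-receptor for WNT7 ligands, differed by -0.57 with overlapping ranges. *Lrp5* differed by 0.17, *Lrp6* by 0.35, *Ror2* by 0.50 and *Ryk* by -0.08, with overlapping ranges. Norrin (*Ndp*) differed by 0.27 (adjusted p = 0.734), with overlapping ranges.

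Of 20 Wnt ligands and Norrin, 15 had a higher and 5 a lower mean in *Wnt4*hi, where 36.5% of all genes were lower, and none passed the adjusted threshold. *Wnt4*, which differed by 1.08, and *Wnt9a* were the only ligands past the unadjusted one, 1 in each direction, beside 5.02% of all genes as higher and 5.53% as lower. *Wnt9a* was not well above background on any *Wnt4*hi array and was well above it on only 2 of 3 *Wnt4*low arrays, so no fold is given. *Wnt10b* differed by 0.27, and 5 ligands were not well above background on any array. Among 9 genes of receptor turnover, which hold the R-spondins, their LGR receptors and the ligases RNF43 and ZNRF3 that remove Frizzled from the membrane, none passed the adjusted threshold and *Rspo1* alone passed the unadjusted one, at -1.08. *Lgr4* differed by 0.56, *Rspo4* by 0.30 and *Znrf3* by 0.28. None of the 5 secreted decoys passed either threshold: *Sfrp2* differed by -1.39 with an adjusted p of 0.733, *Sfrp5* by 0.59 and *Frzb* by 0.26.

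Downstream, of 8 genes of Dishevelled and its partners 2 had a higher and 6 a lower mean in *Wnt4*hi, 1 past the unadjusted threshold in each direction, where 36.5% of all genes were lower and 5.02% passed as higher and 5.53% as lower. *Daam2*, a formin that works with Dishevelled, fell by 1.81 in *Wnt4*hi (SE 0.22; limma, adjusted p = 0.047), while *Dvl1*, *Dvl2* and *Dvl3* differed by -0.26, -0.01 and -0.24. *Dact2*, another Dishevelled-binding protein, was the gene past the unadjusted threshold as higher, at 0.85 with no overlap (adjusted p = 0.282). Of 8 planar polarity genes, 2 passed the unadjusted threshold as higher and 1 as lower, beside 5.02% and 5.53% of all genes. *Vangl1*, a core planar polarity protein, fell with 0 of 3 *Wnt4*hi arrays well above background and was at least 5.24-fold lower there (limma, adjusted p = 0.019). Its partners *Celsr2* and *Celsr3* differed by 1.15 (adjusted p = 0.071) and 1.02, both past the unadjusted threshold. *Vangl2* (-0.73) and *Celsr1* (-0.52) had a lower mean with overlapping ranges and passed neither threshold. Of 16 calcium branch genes, 2 were past the unadjusted threshold as higher and 4 as lower, and none past the adjusted one, beside 5.02% of all genes as higher and 5.53% as lower. *Plcb1* and *Plcb2*, phospholipases that release calcium, differed by -2.12 and -1.31, and the kinase subunit *Camk2b* by 1.38.

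Of 16 canonical targets, 7 had a higher and 9 a lower mean in *Wnt4*hi, with a median of -0.08, and 1 passed the unadjusted threshold as higher and 3 as lower, beside 5.02% and 5.53% of all genes. *Tcf7* passed the adjusted threshold and fell in *Wnt4*hi, at least 2.16-fold, with 0 of 3 *Wnt4*hi arrays well above background (limma, adjusted p = 0.023). *Ccnd1* differed by -1.98 (adjusted p = 0.071) and *Myc* by -1.26 (adjusted p = 0.126), and both are also genes of growing cells. *Nkd2*, an inhibitor that binds Dishevelled, was the target past the unadjusted threshold as higher, at 0.45 (adjusted p = 0.429). The adjusted calls of *Daam2*, *Vangl1* and *Tcf7*, and those of the endothelial markers and *Ghrl*, were lost when any array but *Wnt4*hi replicate 2 was left out, since 0 genes then passed, and without that array only 2 of all genes passed. *Axin2*, a direct target in most tissues, differed by 0.17 with overlapping ranges. The medians of these lists ran from -0.23 for Dishevelled and its partners to 0.14 for receptor turnover, beside -0.33 for the receptors and 0.07 for all genes.

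**Figure D4:**
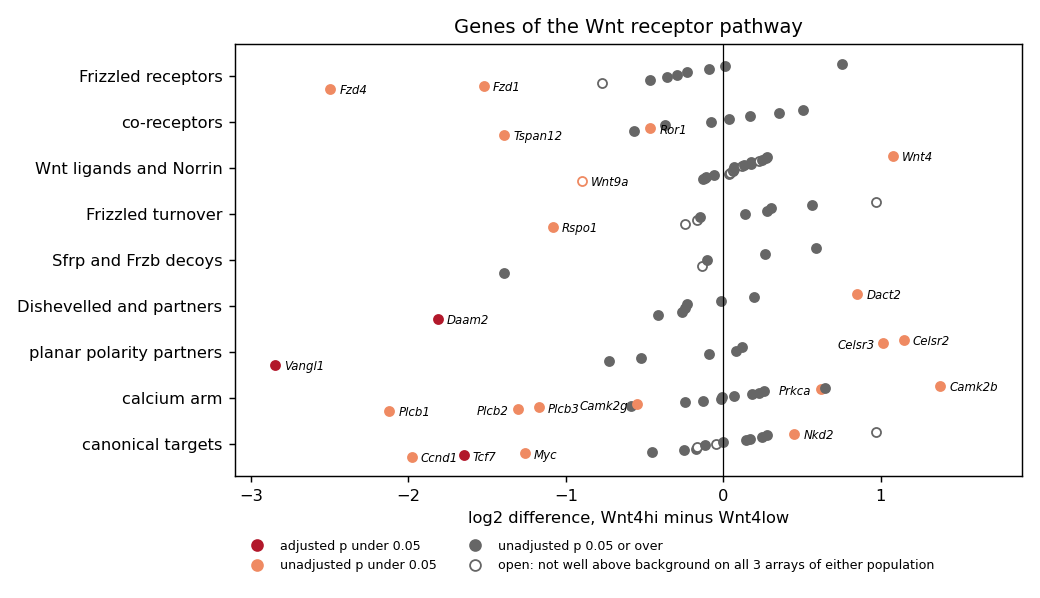
Log2 difference, *Wnt4*hi minus *Wnt4*low, of every gene of the Wnt receptor pathway lists, a row for each list. Red points passed the adjusted threshold (*Daam2*, *Vangl1*, *Tcf7*), orange points the unadjusted one, and open points were not well above background on all 3 arrays of either population. *Fzd4* and *Fzd1* lie left of the other receptors.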

How the data were processed

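Each of the 6 arrays held RNA of FACS-sorted P1 islet cells, amplified from picogram amounts and labelled with Cy5. Scanner files were deposited per array, with each spot's raw intensity and that of its surroundings (Agilent Feature Extraction, 9.1 in the submitters' notes and 12.0.1.1 in the file headers). The authors' own normalized log2 values, 36693 for every array and averaged over probes of a gene, were deposited too and served as an alternative. The array design names an older genome build, so no array coordinates are given.

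Background was removed from median intensities by normexp (offset 50), quantile normalization followed, and differences were tested on the log2 scale with limma 3.58.1 (lmFit and eBayes, R 4.3.3), after the study's methods. Control and outlier spots (50 to 141 outliers per array) were left out and 0 spots were saturated. P-values were adjusted by Benjamini and Hochberg over all 45616 genes or transcripts, with a threshold of 0.05, also for unadjusted p. The probe with the highest mean stood for a gene. Of 27845 RefSeq probe names, 25126 matched the gene table of GRCm38.p6, and the promoters came from RefSeq of the same assembly. A gene not well above background on any array of a population, but so on every array of the other, is given as a bound. The bound is taken against the lowest signal well above background on each array. Precision is limited by how few arrays there are.

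The receptors and gene lists were chosen with earlier results of these data known. All receptors are named. From each pathway list, genes past the adjusted threshold are named, and otherwise up to 3 with the largest differences among those detected above background in all 3 replicates of the higher group. From marker lists, names come from the 3 with the highest mean, and the 5 nearest genes are given for *Fzd4* and *Fzd3*. Other genes in the text were chosen for their known role or after their values were seen. The fit was tested on simulated data. The other ways of processing tried are in the closing section.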

Additional observations from a re-analysis of the deposited data

How the results depend on the processing

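*Fzd4* (-3.15 to -1.84) and *Fzd1* (-1.94 to -1.23) kept their direction and passed the unadjusted threshold under all 21 alternatives, 2 of which were added after seeing the data (both arrays numbered 4 left out, and a crossed replicate block). *Fzd3* stayed above 0 and *Fzd8* below 0 under all 21. With the authors' deposited log2 values *Fzd4* passed the adjusted threshold (-2.49; limma, adjusted p = 0.027, against 0.065 to 0.458 under the others), 1 receptor in all, the median of the receptors was -0.59 and 406 genes passed. These values follow the scanner value by a constant (within 0.1) for 7 of the 10 receptors on 5 arrays, not for *Fzd4*, *Fzd5* and *Fzd8*, and the column of *Wnt4*hi replicate 2 correlated with its own array at 0.870, below 0.889 and 0.885 with replicates 3 and 4 and 0.881 with *Wnt4*low replicate 3. The cause was not tested. Genes past the adjusted threshold numbered 200, 504 with a filter on dim probes, 0 by a per-gene test without limma's shared variance (4044 at an unadjusted p under 0.05), 0 with both arrays numbered 4 left out, 0 with the crossed replicate block, and 0 to 2 with 1 array left out.

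The replicate numbers 3 and 4 are shared, but the labels tie them to no litter or batch. Both arrays numbered 4 were pools of 3 pups, and all others of 4. The deviations of like-numbered arrays correlated at -0.03 and 0.16, and those of unlike-numbered arrays at -0.23 to 0.18. So few arrays cannot decide whether like numbers are paired. The samples were treated as sharing only a number, and whether they share a litter or sort is not known. The numbers 1 and 2 belong to a single array each, so differences with the replicate block rest only on the arrays numbered 3 and 4. With the replicate block 0 genes passed the adjusted threshold, 4 receptors passed the unadjusted one (*Fzd2*, -1.19, and *Fzd10*, whose values were mostly not well above background, joining), the median was -0.63, *Fzd6* was 0.32 and *Fzd9* 0.090. With 1 array left out, the median was -0.57 to -0.23, and 2 to 3 receptors passed the unadjusted threshold. Leaving out *Wnt4*hi replicate 2 gave the median of -0.57. *Fzd2* passed the unadjusted threshold without *Wnt4*hi replicate 2 (-1.10) and *Fzd3* without *Wnt4*hi replicate 4 (1.11). Without *Wnt4*low replicate 1 *Fzd10* passed it, with values mostly not well above background.

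The sign changed for 5 receptors: *Fzd5* to -0.077 with the processed signal, -0.063 with cyclic loess, -0.14 with the mean of its probes, -0.12 without *Wnt4*low replicate 4 (up to 0.11 with another array left out) and -0.11 without both arrays numbered 4; *Fzd6* to 0.026 without *Wnt4*hi replicate 2 and 0.057 without *Wnt4*low replicate 1 (down to -0.71 with another left out); *Fzd9* to 0.056 without *Wnt4*hi replicate 4 and 0.28 without *Wnt4*low replicate 1 (down to -0.31); *Fzd2* to 0.046 without *Wnt4*hi replicate 3; and *Fzd7* to 0.0047 without *Wnt4*low replicate 4 (down to -0.74) and 0.022 without both arrays numbered 4. The cause was not tested. Dim probes limit *Fzd10*, and *Fzd1*, *Fzd3* and *Fzd4* on 1 array each.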
